A study of Mus musculus with 30 samples.

Results

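Broad open windows without a promoter were taken from the accessibility table of marrow-derived mesenchymal stem cells (MSC) as the autosomal windows of 2000 bp or more that hold no start site (TSS) of a protein-coding gene and lie within 50 kb of one. Of the 305931 windows in the table, 3793 met this rule. They made up 1.24% of the windows and 4.08% of the bases that the windows cover. The rule used position, width and the GENCODE annotation but no measured change. Width itself came from the peaks that the authors merged over libraries, so the reads had a part in it. Each window is named here after the gene with the nearest start site, which is a name and not a statement of regulation.

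The assay was ATAC-seq, in which a transposase cuts DNA where chromatin is accessible and the cut fragments are sequenced and counted. MSC came from the marrow of male C57BL/6J mice, pooled from 6 animals into 1 primary line. They were labelled control (CTL) or received CK666 or CytoD for 24 h, with 3 libraries in each group. The sample titles do not state whether controls received a vehicle. A second table held MSC and NIH 3T3 cells, an established mouse embryonic fibroblast line. Each was labelled control or received CK666 for 4 h, again with 3 libraries in each group. The libraries are separate samples of cultured cells, so p-values measure the spread between these cultures or preparations, not between mice. In the table of 24 h the library totals ran from 14071301 to 22352180 counts.

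Start sites of 6 of 9 MSC marker genes lay in a window, at 57.6 to 417 normalized counts per kb in CTL. Of the 8 haematopoietic markers, 3 had one, at 25.4 to 79.1 per kb, and their summed level was 149 in CTL, 124 with CK666 and 171 with CytoD. Within that sum Adgre1, a macrophage marker, had 25.4, 37.8 and 80.5 per kb, and Csf1r, a receptor of the same lineage, had 79.1, 41.7 and 53.6. Of the 4 endothelial markers, 2 had one, at 17.7 to 71.7 per kb, and 1 of 3 epithelial markers had one, at 24.8 per kb. With CK666 and CytoD the endothelial sum went from 89.3 to 102 and 88.4, and the epithelial value to 17.96 and 20.85. The part of other cell types in the results was not tested. The MSC markers summed to 1284 in CTL, 1282 with CK666 and 1127 with CytoD. Bulk counts add up all cells of a culture, so fewer cells with an open window and less access to it in each cell cannot be told apart.

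Accessible stretches away from promoters include enhancers, which are bound by transcription factors and can act on a gene from a distance. Wide stretches can arise where several such elements lie side by side, or over the body or the end of a strongly transcribed gene. CK666 inhibits the Arp2/3 complex, which starts branches on actin filaments. Cytochalasin D (CytoD) caps the growing end of actin filaments and breaks up the filament network of the cytoplasm. Actin monomers and filaments are also found in the nucleus, where actin is a subunit of chromatin remodelling complexes.

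The sequences of 8 broad windows with large changes are shown first, because these windows carry much of the description that follows. Each stretch is 300 bases of the window on the plus strand of GRCm38, 5′ to 3′, read from the reference genome. Capitals mark every match, on either strand, to 1 of 5 motifs: TGANTCA (AP-1), GGAATG (TEAD), GCGTG (AhR core), TGTTTAC (forkhead) and TGNGGT (RUNX). The first 2 stretches come from windows that gained counts with CK666.
Lgi2, chr5:52616410-52616709: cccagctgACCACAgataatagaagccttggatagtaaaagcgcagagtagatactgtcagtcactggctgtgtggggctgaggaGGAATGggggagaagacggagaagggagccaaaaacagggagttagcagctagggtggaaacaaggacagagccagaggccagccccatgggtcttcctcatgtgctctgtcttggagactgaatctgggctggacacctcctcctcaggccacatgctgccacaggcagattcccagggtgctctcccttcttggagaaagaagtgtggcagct
Bco1, chr8:117097204-117097503: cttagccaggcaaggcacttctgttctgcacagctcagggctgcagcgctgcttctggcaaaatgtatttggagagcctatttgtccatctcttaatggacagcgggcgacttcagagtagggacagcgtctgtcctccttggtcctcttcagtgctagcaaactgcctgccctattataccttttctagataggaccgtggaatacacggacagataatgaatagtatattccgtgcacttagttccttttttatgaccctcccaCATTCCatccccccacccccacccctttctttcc

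The next 3 come from windows that lost counts with CK666.
Thbs1, chr2:118128771-118129070: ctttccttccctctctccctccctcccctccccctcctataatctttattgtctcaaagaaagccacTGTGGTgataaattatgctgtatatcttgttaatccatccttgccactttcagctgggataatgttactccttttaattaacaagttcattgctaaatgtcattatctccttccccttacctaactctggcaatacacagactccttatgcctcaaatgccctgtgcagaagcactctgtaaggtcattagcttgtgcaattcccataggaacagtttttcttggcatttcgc
Trappc6b, chr12:59040436-59040735: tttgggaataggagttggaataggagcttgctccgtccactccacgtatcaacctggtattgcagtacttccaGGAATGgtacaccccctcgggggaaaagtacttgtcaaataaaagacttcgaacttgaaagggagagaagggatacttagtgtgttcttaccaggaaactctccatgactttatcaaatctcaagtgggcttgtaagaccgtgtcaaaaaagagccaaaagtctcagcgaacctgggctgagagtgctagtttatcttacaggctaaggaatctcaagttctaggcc
Emp1, chr6:135384263-135384562: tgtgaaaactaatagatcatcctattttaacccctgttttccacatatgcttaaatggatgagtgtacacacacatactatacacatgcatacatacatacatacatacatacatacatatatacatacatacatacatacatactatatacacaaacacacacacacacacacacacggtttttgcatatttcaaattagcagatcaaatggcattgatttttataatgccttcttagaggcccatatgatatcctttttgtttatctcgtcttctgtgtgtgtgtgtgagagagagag

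The last 3 come from windows that changed with CytoD, Lpl gaining and Gtf3c6 and Rps9 losing.
Lpl, chr8:68888515-68888814: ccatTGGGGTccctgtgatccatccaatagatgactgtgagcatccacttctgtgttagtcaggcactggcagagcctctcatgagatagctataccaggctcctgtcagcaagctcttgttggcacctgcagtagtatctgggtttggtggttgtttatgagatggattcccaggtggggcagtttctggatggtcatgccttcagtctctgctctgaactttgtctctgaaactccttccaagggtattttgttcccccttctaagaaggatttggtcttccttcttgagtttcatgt
Gtf3c6, chr10:40260048-40260347: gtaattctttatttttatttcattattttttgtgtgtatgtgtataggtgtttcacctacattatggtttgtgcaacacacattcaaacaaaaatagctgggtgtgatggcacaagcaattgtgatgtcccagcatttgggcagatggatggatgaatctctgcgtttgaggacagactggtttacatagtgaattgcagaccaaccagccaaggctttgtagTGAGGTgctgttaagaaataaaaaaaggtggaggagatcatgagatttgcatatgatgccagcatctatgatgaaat
Rps9, chr7:3709876-3710175: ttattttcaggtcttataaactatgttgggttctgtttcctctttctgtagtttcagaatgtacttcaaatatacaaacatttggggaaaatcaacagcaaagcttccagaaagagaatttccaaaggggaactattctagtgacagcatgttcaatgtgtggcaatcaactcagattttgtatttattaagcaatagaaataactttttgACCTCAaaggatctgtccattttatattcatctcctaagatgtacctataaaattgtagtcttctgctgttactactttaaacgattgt

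In the central 500 bases, TGANTCA matched in 14.8% of the broad windows, against 26.8% of all 298808 autosomal windows. The motif GGAATG matched in 25.9% against 29.2%, GCGTG in 26.6% against 23.4%, TGTTTAC in 6.12% against 7.03% and TGNGGT in 73.7% against 70.5%. The centre of a broad window need not be where the counts are highest. Among the 51 windows gained with CK666, 8 (15.7%) held the forkhead letters in the centre, and among the 49 lost ones 1 (2.04%) did. Over whole windows the forkhead matches were 0.2275 per kb in the gained, 0.1481 in the lost and 0.1265 in all broad windows. The lost windows were thus not short of these letters over their whole length. Of the 29 windows gained with CytoD, 1 (3.45%) held the AP-1 letters in the centre. Over whole windows these had 0.1903 AP-1 matches per kb, against 0.3434 in all broad windows. A match is a run of letters, and no binding was measured here.

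Broad windows were 2404 bp wide at the median, with an upper quartile of 2905 bp and the widest at 9485 bp. The nearest start site lay 5 to 49897 bp away, 9045 bp at the median. It lay within 5 kb for 1360 windows (35.9%) and within 20 kb for 2797 (73.7%). Introns held 1428 windows (37.6%), coding exons 1112 (29.3%), UTR exons 250 (6.59%) and intergenic DNA 1003 (26.4%). Start sites of transcripts other than protein-coding ones lay in 524 windows, and the 3′ end of a protein-coding gene lay in 412. In 2667 windows (70.3%) the centre was downstream of the nearest start site.

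In CTL the broad windows held a median of 34.7 normalized counts per kb, scaled to the mean library. Narrower windows without a promoter and within 50 kb held 26.4 per kb, and broad windows that contain a promoter held 139 per kb. GC content was 48.8% at the median, between the 46.4% of the narrower windows and the 55.0% of broad promoter windows. The density of reads was nearer that of narrower distal windows than that of promoters. All 3793 broad windows passed the filter on low counts, which compares with 178064 of the 180937 narrower ones.

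The 2479 nearest genes had unequal numbers of broad windows. Exactly 1 was found at 1723 genes, 2 or more at 756 and 5 or more at 66. Asap1, which encodes an Arf GTPase-activating protein of focal adhesions, had 19. Fat1, an atypical cadherin, had 10. Mgat5, a glycosyltransferase of N-glycan branching, and Cmip had 9 each, and Mbp, Zeb2, Camk1g and Myo10 had 8 each. The windows just inside the limits of the rule were those at Muc13 and Tmem64 (2000 bp) and at Pcdh18 (49897 bp) and Cblb (49845 bp). Just outside were those at Adarb1 and Akap6 (1999 bp) and at Tmpo (50050 bp) and Nr4a2 (50062 bp). On the log2 scale, CK666 differed from CTL by -0.56 at Muc13, -0.46 at Tmem64, 0.15 at Pcdh18 and 0.03 at Cblb. The values outside were -0.68 at Adarb1, 0.03 at Akap6, -0.24 at Tmpo and 0.17 at Nr4a2.

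The first comparison asked how these windows responded to CK666 after 24 h. With CK666, 51 broad windows gained and 49 lost counts, where a window passed both limits if its log2 fold change exceeded 1 in size and its adjusted p was below 0.01 (edgeR's quasi-likelihood test, Benjamini-Hochberg adjustment over all 300323 windows tested). Gains made up 1.34% of the broad windows, against 1.88% of all windows tested. Losses made up 1.29%, against 1.06%. At an adjusted p under 0.05 and with no limit on the fold change, 257 (6.78%) were higher, against 4.9% of all windows, and 369 (9.73%) were lower, against 4.6%. The median log2 fold change was -0.01, and 0.02 over all windows. The groups did not overlap in 1188 broad windows (31.3%), against 25.3% of all windows. Of the 913 autosomal windows as broad and without a promoter but beyond 50 kb, 6.57% were higher and 14.5% lower at an adjusted p under 0.05. Those windows held a median of 90.0 normalized counts in CTL. Shares above those of all windows were thus not particular to broad windows near a start site.

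The spread of the log2 fold changes was smaller than in narrower windows, with an SD of 0.407 against 0.612. Broad promoter windows had an SD of 0.217, and 2 of 2250 gained and 3 lost. Windows differ in counts, with a median of 93.4 normalized counts in CTL for the broad windows and 20.4 for the narrower ones, so the SDs hold different amounts of counting error. The 51 gained windows had a median of 77.0 normalized counts in CTL and the 49 lost windows a median of 242. Of the lost windows, 24 were intergenic, 11 intronic, 7 in coding exons and 7 in UTR exons. Of the gained windows, 15 were intergenic, 13 intronic, 17 in coding exons and 6 in UTR exons.

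**Figure D1:**
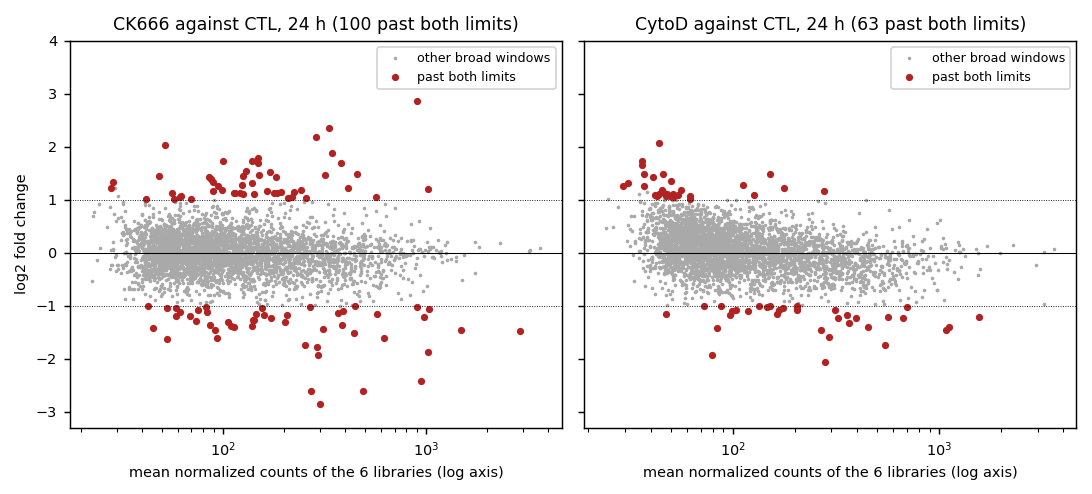
Log2 fold change of each broad window (vertical axis) against its mean normalized counts over the 6 libraries compared (horizontal log axis), for CK666 (left) and CytoD (right). Red points passed both limits, and dotted lines mark log2 fold changes of 1 and -1. With CytoD the 29 gains lie mostly at low counts and the 34 losses at higher ones.

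The largest gain with CK666 was in an intergenic window 48.9 kb upstream of Lgi2, at chr5:52615325-52617794. It held 214, 217 and 225 normalized counts in CTL, 1528, 1604 and 1651 with CK666 and 248, 272 and 240.5 with CytoD. The CK666 libraries stood far above the other 6, and the lowest CytoD library was above the highest CTL library. In log2 terms the change was 2.86 (SE 0.0881, adjusted p = 2.03e-42) with CK666 and 0.21 (SE 0.0969, adjusted p = 0.182) with CytoD. Its matches to GGAATG and TGNGGT are in the stretch printed above.

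A window past the 3′ end of Gadd45a, a stress-induced gene that slows the cell cycle, held 110.4, 98.9 and 119.8 normalized counts in CTL and 549.7, 532 and 589 with CK666. CytoD gave 126, 171 and 156, so the 3 groups did not overlap, with CytoD between the others. Its log2 fold change was 2.34 (SE 0.12, adjusted p = 5.28e-28) with CK666 and 0.47 (SE 0.135, adjusted p = 0.0133) with CytoD.

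A window over coding exons of Bco1, which encodes an enzyme that cleaves beta-carotene, held 118, 102 and 91.2 in CTL and 475, 472 and 459.9 with CK666. CytoD libraries held 148, 194 and 152, above CTL and below CK666. The log2 fold changes were 2.19 (SE 0.125, adjusted p = 3.31e-25) and 0.67 (SE 0.138, adjusted p = 0.000216). At Paqr3, a Golgi membrane protein, CTL libraries held 170.1, 149 and 125, CK666 libraries 566, 505 and 544 and CytoD libraries 188, 215 and 208. The log2 fold change with CK666 was 1.87 (SE 0.114, adjusted p = 8.22e-24), and again the groups did not overlap.

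Ero1l encodes an oxidase that drives disulphide bond formation in the endoplasmic reticulum, and it had 2 gained windows. The one at chr14:45280514-45282593 lies 494 bp past the end of the gene and over UTR exons of Gpr137c, and it held 27.3, 12.8 and 22.3 in CTL and 78.7, 66.1 and 105 with CK666. These counts are low, and the log2 fold change was 2.03 (SE 0.284, adjusted p = 3.74e-08). No sequence is shown for it, since none of its 300-base stretches is free of UTR. The other, at chr14:45319909-45322319, held 197, 164 and 183 in CTL and 606, 546 and 595 with CK666, and its log2 fold change was 1.69 (SE 0.107, adjusted p = 7.74e-23). Both windows had no overlap between CTL and CK666.

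Several further gained windows are named here after their values were seen. At Sqstm1, the autophagy receptor p62, 2 windows rose by 1.44 and 1.32 on the log2 scale. Gdf15, a stress-induced cytokine, rose by 1.72, Ddit4, an inhibitor of mTORC1 signalling, by 1.13, and a window at Mars, the gene of methionyl-tRNA synthetase, by 1.54. The hydrogen peroxide-degrading enzyme gene Cat rose by 1.46. The windows at Ccnd2, a G1 cyclin, and Btg1, an antiproliferative gene, rose by 1.14 and 1.04.

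The largest loss with CK666 was at Lox, which encodes lysyl oxidase, the enzyme that cross-links collagen and elastin. This window of 4634 bp covers the 3′ end of the gene. It held 597, 445 and 536 normalized counts in CTL, 82.4, 64.4 and 70.8 with CK666 and 368, 312 and 326 with CytoD. The 3 groups were separate, with CK666 lowest. On the log2 scale it changed by -2.85 (SE 0.126, adjusted p = 6e-32) with CK666 and -0.65 (SE 0.107, adjusted p = 3.89e-06) with CytoD.

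Thbs1 encodes thrombospondin 1, a secreted matrix glycoprotein that can activate latent TGF-beta. The window at chr2:118127366-118130475 lies 233 bp past its 3′ end, over a UTR exon of Fsip1, the neighbouring gene. It held 548, 344 and 515 in CTL, 74.9, 74.8 and 79.6 with CK666 and 286, 227 and 218 with CytoD. All 3 CK666 libraries lay below every CytoD library, and these below every CTL library. The log2 fold change was -2.61 (SE 0.138, adjusted p = 3.71e-27) with CK666 and -0.94 (SE 0.123, adjusted p = 6.95e-09) with CytoD. The second was short of a change of 1, and passed both limits without CTL replicate 2 or CytoD replicate 1.

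At Pecr, a peroxisomal reductase of fatty acid metabolism, the window lay past the 3′ end of the gene. It held 771, 904 and 849 in CTL, 129, 166 and 118 with CK666 and 247, 259 and 248 with CytoD. In log2 terms the change was -2.61 (SE 0.106, adjusted p = 4.46e-34) with CK666 and -1.75 (SE 0.101, adjusted p = 4.74e-24) with CytoD. Both treatments lowered this window past both limits, and the treated groups did not overlap each other.

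Trappc6b encodes a subunit of a vesicle tethering complex. Its window, 1469 bp past the gene's end, held 1481, 1647 and 1636 in CTL, 307, 278 and 310.5 with CK666 and 575, 564 and 601 with CytoD. Its log2 fold change was -2.41 (SE 0.0826, adjusted p = 2.71e-39) with CK666 and -1.45 (SE 0.0787, adjusted p = 1.96e-25) with CytoD. The window at chr6:135383278-135385547 lies 105 bp past the end of Emp1, a tetraspan membrane protein. It held 435, 457 and 499 in CTL, 124, 123 and 119.9 with CK666 and 309, 380.1 and 351 with CytoD, which again placed CytoD between the other groups. On the log2 scale it changed by -1.93 (SE 0.114, adjusted p = 1.73e-24) with CK666 and -0.42 (SE 0.103, adjusted p = 0.0028) with CytoD.

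Cxcl12, the chemokine by which marrow stroma retains blood stem cells, had 2 windows that moved in opposite directions with the drugs. The first, over coding exons at chr6:117177162-117179637, held 159.7, 136 and 156 in CTL, 73, 60.0 and 49.1 with CK666 and 239, 214 and 173 with CytoD. The second, at chr6:117179934-117185888 and over the 3′ end, held 468, 499 and 624, 291, 213 and 238 and 778, 746 and 720.5. No group overlapped another in either window. With CK666 the log2 fold changes were -1.30 (SE 0.168, adjusted p = 3.4e-09) and -1.11 (SE 0.101, adjusted p = 8.84e-15). With CytoD they were 0.47 (SE 0.149, adjusted p = 0.0301) and 0.49 (SE 0.0947, adjusted p = 7.82e-05), below a change of 1. Without CTL replicate 3 the second window changed by -0.99 with CK666 and so missed the fold limit.

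Other genes had more than 1 window past both limits with CK666. Ahnak, which encodes a very large scaffold protein, lost 2 windows (-1.39 and -1.36), Fam49b lost 2 (-1.19 and -1.04) and AI597479 lost 2 (-1.61 and -1.40). Mreg, a melanosome transport gene, lost 2 (-1.46 and -1.22) and gained 1 (1.04). Windows at Vim, the intermediate filament of mesenchymal cells, and Anxa1, a calcium-dependent phospholipid-binding protein, fell by 1.16 and 1.28 on the log2 scale. A window at Fstl1, a secreted glycoprotein, fell by 1.39, and one at Mki67, a marker of cycling cells, fell by 1.05. These genes outside the fixed naming rule were chosen after their values were seen.

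**Figure D2:**
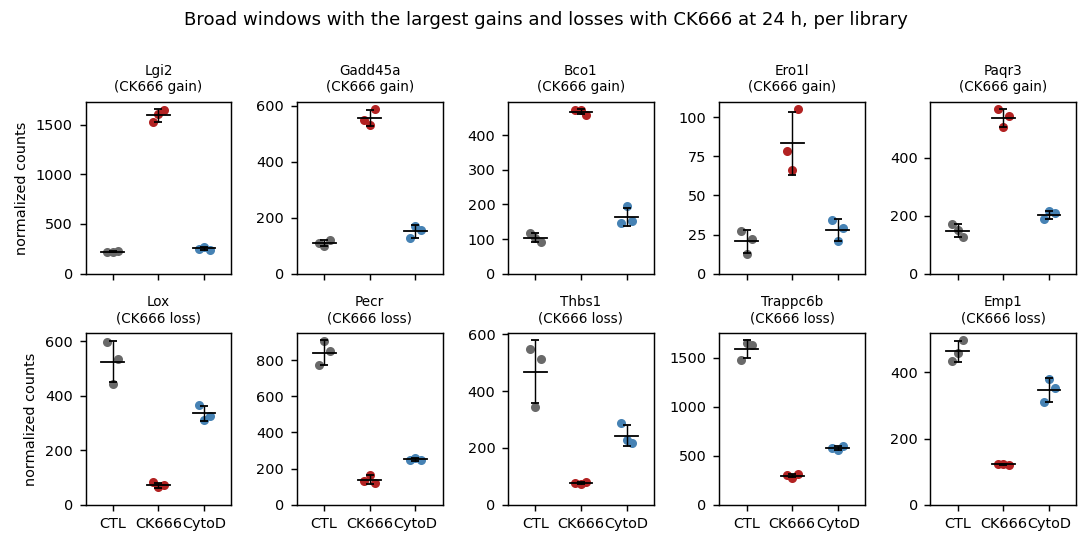
Normalized counts (vertical axes, each starting at 0) of the broad windows with the 5 largest gains (upper row) and the 5 largest losses (lower row) under CK666. Each point is 1 library, the long bar is the mean and the error bars are the SD of 3 libraries (CTL grey, CK666 red, CytoD blue). In every panel the CK666 libraries stand apart from CTL, as the rule for picking these windows required, and CytoD lies mostly between them.

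The second comparison asked the same of CytoD, against the same CTL libraries. With CytoD, 29 broad windows gained (0.765%, against 0.98% of all windows) and 34 lost counts (0.896%, against 1.4%). At an adjusted p under 0.05, 290 (7.65%) were higher, against 3.68% of all windows, and 399 (10.5%) were lower, against 6.2%. The median log2 fold change was 0.04, and 0.04 over all windows. CytoD and CTL did not overlap in 1185 broad windows (31.2%), against 25.8% of all. The split between gains and losses depended on the scaling, with 43 gains and 24 losses under total counts, 38 and 26 with a GC trend removed, 39 and 17 with an abundance trend removed, and 19 and 36 with DESeq2. It was 25 and 46 without CytoD replicate 1 and 23 and 42 without CytoD replicate 3. Total counts moved the median over all windows to 0.12. Of the 913 broad windows without a promoter beyond 50 kb, 7.67% were higher and 13.6% lower with CytoD at an adjusted p under 0.05.

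The CytoD gains were windows of low counts. Their median was 28.2 normalized counts in CTL, 16 of the 29 lay over coding exons, and their median GC content was 51.8%. The lost windows had a median of 275 counts, and 20 of 34 were intergenic. Low counts carry more counting error, so single gains are less firmly measured than single losses.

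The gains named here had a mean of 50 normalized counts or more. Hk2, the inducible hexokinase that starts glycolysis, held 106, 118 and 96.5 in CTL, 184, 151 and 165 with CK666 and 229, 246 and 272 with CytoD. Its log2 fold change was 1.22 (SE 0.14, adjusted p = 1.07e-10) with CytoD, and CK666 gave 0.64 (SE 0.143, adjusted p = 0.000679), between the other groups.

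Lpl encodes lipoprotein lipase, which releases fatty acids from lipoproteins and rises as fat cells form. Its window at chr8:68887576-68889754 held 28.6, 23.9 and 32.2 in CTL and 70.0, 69.2 and 77.7 with CytoD, a log2 fold change of 1.36 (SE 0.266, adjusted p = 9.68e-05). CK666 libraries spread more widely, at 78.7, 48.7 and 35.4, and gave 0.95 (SE 0.269, adjusted p = 0.0117), or 1.14 and past both limits without CK666 replicate 3. An intronic window of Rbms3, an RNA-binding protein, held 66.2, 59.7 and 69.7 in CTL, 93.6, 107 and 103 with CK666 and 173, 162 and 144 with CytoD. CytoD changed it by 1.28 (SE 0.173, adjusted p = 2.07e-08) and CK666 by 0.64 (SE 0.178, adjusted p = 0.00975) on the log2 scale. The window named after Nxph4 lies over coding sequence of Lrp1. It held 36.4, 42.6 and 25 in CTL and 67.4, 69.2 and 96.9 with CytoD, and the log2 fold change was 1.18 (SE 0.252, adjusted p = 0.000411). That call was lost without CTL replicate 3 (0.96) and without CytoD replicate 3 (0.96).

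Gtf3c6, a subunit of the RNA polymerase III factor TFIIIC, had the largest CytoD loss. Its window at chr10:40259055-40261341 starts 946 bp from the nearest start site, directly beside the window that holds that promoter. It held 435, 442 and 472 in CTL, 124, 114 and 153 with CK666 and 104, 126 and 95.1 with CytoD. In log2 terms the change was -2.06 (SE 0.13, adjusted p = 3.06e-22) with CytoD and -1.79 (SE 0.124, adjusted p = 1.02e-20) with CK666. Both drugs lowered it past both limits, and the direct contrast gave 0.27 (SE 0.143, adjusted p = 0.239).

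The window at chr7:3708902-3711150, 2005 bp past the end of the ribosomal protein gene Rps9, held 140.3, 112 and 125 in CTL, 88, 104 and 93.4 with CK666 and 26.7, 25.5 and 43.9 with CytoD. Its log2 fold change was -1.93 (SE 0.215, adjusted p = 5e-11) with CytoD and -0.39 (SE 0.182, adjusted p = 0.191) with CK666.

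Other CytoD losses lay at genes of ribosomes and translation, a group chosen after the values were seen. Rps12, Rpl5, Rpl3, Rps23 and Rpl27a changed by -1.15, -1.15, -1.08, -1.01 and -1.01 on the log2 scale. The elongation factor gene Eef1a1 changed by -1.05 and the nucleolar Nop56 by -1.11. Over all 27 broad windows nearest to the 22 Rpl and Rps genes that have one, the median CytoD change was -0.33, and 22 lay below 0. At an adjusted p under 0.05, 13 differed from CTL, 12 of them lower, and 6 were lost past both limits. With CK666 the median was 0.26, 6 lay below 0 and none was past both limits by edgeR or DESeq2. At an adjusted p under 0.05, 4 differed with CK666, 1 of them lower, and 13 had an unadjusted p under 0.05. Over all windows, 6.2% were lower with CytoD at an adjusted p under 0.05 and 1.4% were lost past both limits. The group was chosen after CytoD losses in it were seen, so these counts are no result about ribosomal protein genes.

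The third comparison set CK666 directly against CytoD, a contrast that leaves the shared CTL libraries out of the difference. Counts were higher with CK666 in 58 broad windows (1.53%, against 2.14% of all windows) and lower in 31 (0.817%, against 1.14%). This split was 44 and 45 under total counts, 47 and 42 with a GC trend removed, and 40 and 45 with an abundance trend removed. The median difference was -0.06, and -0.03 over all windows. Because the drugs were compared with the same CTL libraries, values against CTL are only given side by side. The 51 windows gained with CK666 had a median CytoD change of 0.40, ranging from -0.91 to 1.73, and the 49 lost ones a median of -0.70, ranging from -2.06 to 0.49.

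Ostf1, an osteoclast-stimulating factor gene, had the clearest opposite values. Its intronic window at chr19:18598145-18600190 held 217, 269 and 249 in CTL, 628, 532 and 569 with CK666 and 128, 149 and 117 with CytoD. The groups were separate, with CTL in the middle. The log2 fold change was 1.22 (SE 0.106, adjusted p = 5.84e-16) with CK666 and -0.91 (SE 0.123, adjusted p = 1.73e-08) with CytoD, and the direct contrast gave 2.14 (SE 0.116, adjusted p = 1.86e-26). The CytoD loss passed both limits without CTL replicate 1 or CytoD replicate 2. At Uxs1, a UDP-xylose synthase, CTL libraries held 80.5, 81 and 41.1, CK666 libraries 223, 236 and 233 and CytoD libraries 67.4, 58.3 and 61.3. The direct contrast was 1.89 (SE 0.175, adjusted p = 1.66e-14), while CytoD and CTL libraries overlapped. At the first Cxcl12 window the direct contrast was -1.77 (SE 0.165, adjusted p = 1.91e-14).

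Among the 3 widest windows, the one of 9485 bp near Nup107, a nuclear pore gene, held 429, 297 and 392 in CTL, 230.3, 298 and 299 with CK666 and 394, 391 and 362 with CytoD, and CK666 changed it by -0.42 (SE 0.11, adjusted p = 0.00489). The one of 8206 bp at Nelfcd changed by -0.05 with CK666 and 0.14 with CytoD, both within the spread of the libraries. The one of 7788 bp at Srxn1, which encodes the antioxidant enzyme sulfiredoxin, held 479, 489 and 544 in CTL, 970.1, 841 and 910.0 with CK666 and 462, 483 and 451 with CytoD. The CK666 libraries were all higher, with a log2 fold change of 0.84 (SE 0.0842, adjusted p = 3.1e-13), while CytoD overlapped CTL.

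The 13 gene lists of pathways and cell types were then read through their broad windows, with the counts and medians given beside the background above. YAP and TEAD carry signals of cell shape and tension to the nucleus, and 13 of 25 genes on that list had 43 broad windows. With CK666 the median was -0.21, 14 were lower and 1 higher at an adjusted p under 0.05, and 1 was lost past both limits. Asap1 alone held 19 of the 43 windows and 9 of the 14 lower ones, so 1 gene holds most of the lower windows. The lost window lies over coding exons of Asap1 and held 76.6, 77.6 and 59.9 in CTL and 35.6, 27 and 41.3 with CK666. Its log2 fold change was -1.04 (SE 0.245, adjusted p = 0.00142), with values of -0.90 and -0.99 and no call without CK666 replicate 2 or CTL replicate 2. With CytoD the median was -0.08, 5 were lower and 3 higher at that limit, and the window at Ankrd1, a widely used YAP target, was lost while that at Rbms3 was gained. Ankrd1 held 244, 277 and 305 in CTL, 173, 161 and 198 with CK666 and 168, 114 and 115 with CytoD. CytoD changed it by -1.07 (SE 0.138, adjusted p = 5.23e-09) on the log2 scale, and by -0.99 without CytoD replicate 3.

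Genes of collagen and matrix had 22 broad windows at 13 of 30 genes. With CK666, 6 were lower and 2 higher at an adjusted p under 0.05, and Lox, Thbs1 and Thbs2 lost windows past both limits. Thbs2 encodes a second thrombospondin. The window over its 3′ end held 232, 181 and 248 in CTL, 123, 93.1 and 74.7 with CK666 and 151, 115 and 124 with CytoD, a log2 fold change of -1.18 (SE 0.154, adjusted p = 5.44e-09) with CK666 and -0.76 (SE 0.153, adjusted p = 0.000164) with CytoD. The list's median was -0.10 with CK666 and -0.11 with CytoD, and its windows went both ways, from -2.85 to 0.78 with CK666 and from -0.94 to 0.86 with CytoD. With CytoD 7 were lower and 1 higher at an adjusted p under 0.05 and none passed both limits.

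MRTF and SRF respond to the pool of actin monomers, and 10 of 27 genes on their list had 21 broad windows. None passed both limits with either drug. With CytoD 6 were lower and none higher at an adjusted p under 0.05, with a median of -0.19, and with CK666 2 were lower and 1 higher, with a median of -0.08. Fhl2, a LIM protein gene of this list, held 280.5, 269 and 309 in CTL, 244, 169.7 and 216 with CK666 and 176, 202 and 166 with CytoD. An intronic window of Myh9, the nonmuscle myosin heavy chain, held 343, 326 and 345 in CTL and 221, 197 and 227 with CytoD, a log2 fold change of -0.65 (SE 0.113, adjusted p = 1.02e-05). Regulators of actin itself had 20 broad windows, and 1 was higher and 1 lower at an adjusted p under 0.05 with CK666. The lower one, near the Arp2/3 subunit gene Arpc1b and over coding sequence of Pdap1, changed by -0.59 (SE 0.147, adjusted p = 0.00305). With CytoD the formin gene Diaph3 changed by 0.73 (SE 0.241, adjusted p = 0.0366).

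Of the lists for cell fate, fat-cell genes had 14 broad windows, with medians of 0.13 for CK666 and 0.32 for CytoD, and the Lpl window was gained with CytoD. Plin2, a lipid droplet coat protein, held 90.9, 74.2 and 72.4 in CTL and 124, 109.6 and 168 with CK666, a log2 fold change of 0.77 (SE 0.177, adjusted p = 0.00111). Bone-cell genes had 7, with medians of -0.39 and -0.42. At Sparc, the matrix protein osteonectin, CTL libraries held 59.7, 60.5 and 60.8 and CK666 libraries 32.8, 33.1 and 31.4, a log2 fold change of -0.89 (SE 0.258, adjusted p = 0.0136). Near Spp1, which encodes osteopontin, CytoD changed a window by -0.71 (SE 0.151, adjusted p = 0.000421). Marrow stroma genes had 14 broad windows, with medians of -0.12 and 0.00, and the 2 Cxcl12 windows were the only ones past both limits. At Kitl, the stem cell factor gene, libraries held 621, 583 and 671 in CTL, 776, 765 and 819 with CK666 and 414, 415 and 455 with CytoD.

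In the lists for signalling and adhesion no window passed both limits against CTL. Adhesion genes had 27 broad windows, of which 5 were lower and 1 higher with CK666, and 6 lower and 2 higher with CytoD, at an adjusted p under 0.05. A window near Tns3, a focal adhesion tensin, changed by -0.91 (SE 0.0931, adjusted p = 1.04e-12) with CK666, and one at Cdh11, the mesenchymal cadherin, by -0.72 (SE 0.0925, adjusted p = 3.01e-09) with CK666 and -0.41 (SE 0.0923, adjusted p = 0.00095) with CytoD. TGF-beta and BMP genes had 25, with 2 higher and 2 lower with CK666 and none with CytoD, where 6 had an unadjusted p under 0.05 by edgeR. Near Smad4, their shared signal transducer, CTL libraries held 729, 671 and 799.8, CK666 libraries 1141, 1081 and 1105 and CytoD libraries 625, 648 and 614. Of the 16 Wnt windows, 1 was higher and 2 lower with CK666. Those 2 directions met at Lrp6, a Wnt co-receptor, whose windows changed by 0.88 (SE 0.126, adjusted p = 8.09e-08) and -0.42 (SE 0.0928, adjusted p = 0.000545) with CK666. AP-1 genes (4 windows), AhR targets (3) and markers of other cell types (4) had none past both limits. Over all lists without a call by edgeR, 49 of 141 windows had an unadjusted p under 0.05 with CK666 (10 lists) and 52 of 163 with CytoD (11 lists), and DESeq2 called 0 of either. The share of all windows at that unadjusted limit was not computed. Counts at that limit, here and elsewhere, are therefore no result about a list or gene. At Lrp1, an endocytic receptor on the AhR list, the values were -0.59 (SE 0.0955, adjusted p = 1.51e-06) with CK666 and -0.80 (SE 0.0983, adjusted p = 1.11e-09) with CytoD.

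**Figure D3:**
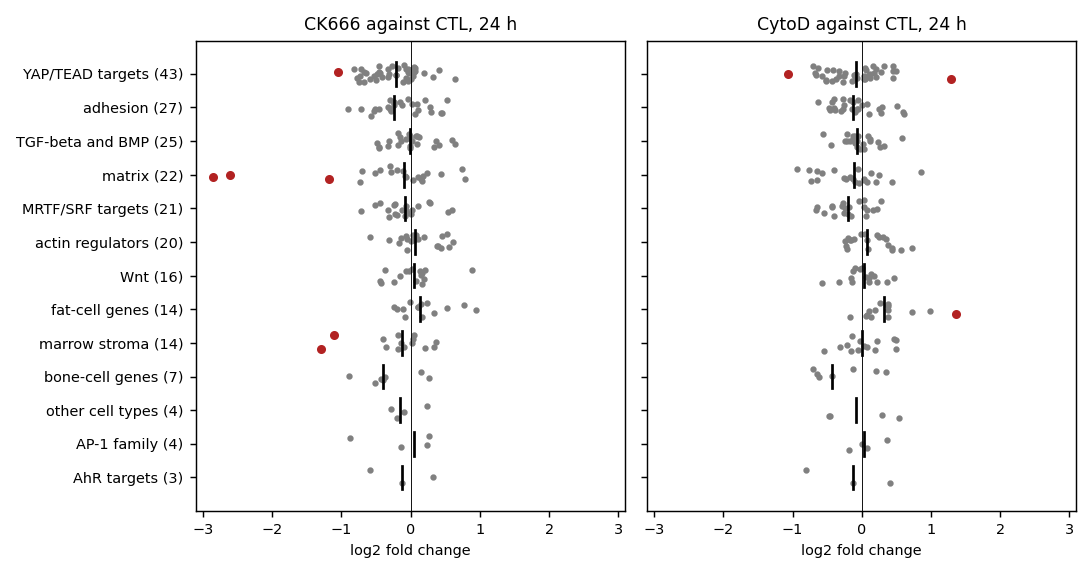
Log2 fold change (horizontal axis) of every broad window nearest to a gene of each list, with the number of windows in brackets, for CK666 (left) and CytoD (right). Grey points are single windows, red points passed both limits and black bars are medians. Most windows of every list lie between -1 and 1, and the matrix list holds the 2 lowest values with CK666.

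The genes with the most broad windows differed in how alike their windows behaved. At Asap1, CK666 gave changes from -1.04 to 0.06 with a median of -0.51, and 9 of 19 windows were lower and none higher at an adjusted p under 0.05. CytoD gave -0.70 to 0.45 with a median of -0.27, with 3 lower and 1 higher. Control levels there ran from 19.3 to 211 normalized counts per kb, so the windows of 1 gene were unequal in access. At Fat1 no window passed an adjusted p of 0.05 with CK666 by edgeR, with changes from -0.54 to 0.32 and 1 of 10 at an unadjusted p under 0.05, and 1 was higher with CytoD. Mgat5, Zeb2 and Camk1g each had 1 higher window with CK666, and Camk1g and Mbp had 1 lower window each. Cmip had a CytoD median of 0.31, the highest of the 8 genes, with 1 of its 9 windows higher. Myo10, an unconventional myosin of filopodia, had none at an adjusted p under 0.05 with either drug by edgeR, with changes from -0.44 to 0.49 with CK666, and 1 and 0 of its 8 had an unadjusted p under 0.05 with CK666 and CytoD. DESeq2 called none of the Fat1 and Myo10 windows past both limits. Windows of 1 gene share a locus and are not replicates.

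**Figure D4:**
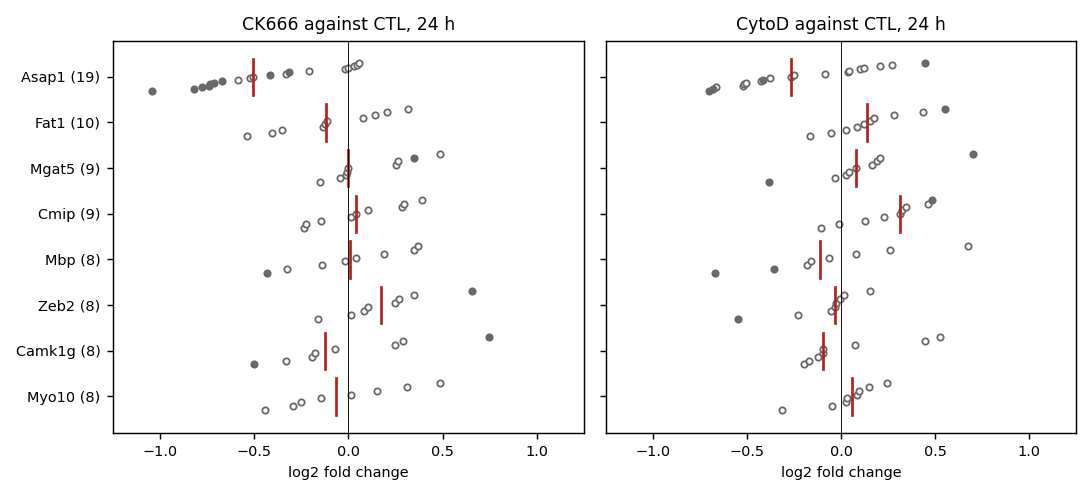
Log2 fold change (horizontal axis) of all broad windows at the 8 genes that are nearest to the most of them, with their number in brackets, for CK666 (left) and CytoD (right). Filled points had an adjusted p under 0.05, open points did not, and red bars are medians. The Asap1 windows with CK666 run from -1.04 to 0.06, with filled points only at the low side.

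Promoter windows of the nearest genes were compared with the broad windows in the same libraries. Of the 3793 broad windows, 3514 had a tested window over the start site of their nearest gene. Across these, the changes of broad window and promoter had a Pearson r of 0.09 with CK666 and 0.16 with CytoD, given as a description because both come from the same libraries and several windows share 1 promoter. Of 46 windows gained with CK666 that have such a promoter, none had a promoter gained past both limits, 5 promoters were higher and 7 lower at an adjusted p under 0.05. Of 47 lost windows, 2 had a promoter lost past both limits, 7 were lower and 2 higher. Over all autosomal promoter windows tested, 5.11% were higher and 3.3% lower with CK666 at an adjusted p under 0.05. Past both limits 0.556% of them were gained and 0.222% lost. The median promoter change was -0.05 beside lost windows whose own median was -1.28. The Lox promoter changed by -1.02 with CK666. Of 33 windows lost with CytoD, 1 had a lost promoter, that of Gtf3c6 at -1.17, and 7 were lower. Over all autosomal promoter windows tested, 8.8% were lower with CytoD at an adjusted p under 0.05 and 0.191% were lost past both limits.

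The distance of the largest losses to the 3′ end of a gene was read after the values were seen. Of all broad windows, 965 (25.4%) lay within 5 kb of the 3′ end of their nearest gene. This held for 17 of 51 (33.3%) gained and 18 of 49 (36.7%) lost with CK666, and for 7 of 29 (24.1%) gained and 17 of 34 (50%) lost with CytoD.

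Summed over all broad windows, the share of a library's counts was 3.36% ± 0.0656 in CTL, 3.22% ± 0.0375 with CK666 and 3.34% ± 0.006 with CytoD (SD, n = 3). Single libraries held 3.43%, 3.32% and 3.33% in CTL, 3.20%, 3.27% and 3.21% with CK666, and 3.34%, 3.35% and 3.35% with CytoD. The CK666 libraries were all below the CTL libraries, a difference of -0.135 percentage points (two-sided exact permutation test, p = 0.1, adjusted p = 0.2 over 2 comparisons). The smallest p that 3 against 3 libraries allow is 0.1. CytoD differed by -0.015 points (exact permutation p = 1), and the difference was 0.0227 without CTL replicate 1.

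Libraries of 4 h were made and counted separately, in windows called anew, so they share no control with those of 24 h. The overlap with a broad window was at least 50% of the shorter interval for 6158 windows of that table. These lay at 3581 of the 3793 broad windows. A promoter lay in 76 of the 6158. In MSC with CK666 for 4 h, 43 of 6062 tested windows were higher (0.709%, against 0.59% of all windows of that table) and 74 were lower (1.22%, against 0.427%). The median change was -0.01, and 0.00 over all. Over the 3541 broad windows tested at both times, the change at 24 h and that of the most overlapping window at 4 h had a Pearson r of 0.40 and a Spearman rho of 0.33, as a description across sites. Of 50 windows gained at 24 h with a value at 4 h, 44 were above 0 at 4 h and 8 passed both limits. Of 49 lost ones, 44 were below 0 and 14 passed both limits. None passed both limits in the opposite direction.

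**Figure D5:**
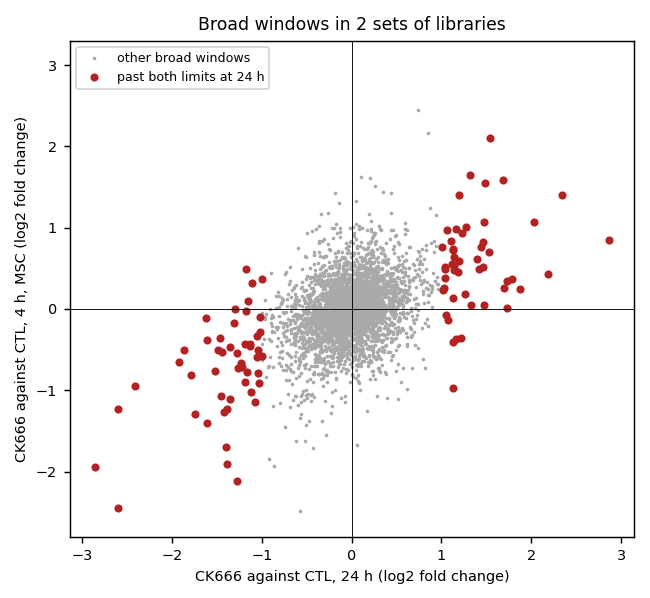
Log2 fold change with CK666 at 4 h in MSC (vertical axis) against that at 24 h (horizontal axis) for the 3541 broad windows tested in both tables. Red points passed both limits at 24 h. Most red points lie in the lower left (44 of 49 losses) and the upper right (44 of 50 gains).

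At Gadd45a, MSC held 78.2, 117 and 102 normalized counts in CTL and 285, 271 and 237 with CK666 at 4 h, a log2 fold change of 1.41 (SE 0.134, adjusted p = 7.85e-14). The window at Ero1l with the higher counts went from 186, 203 and 186 to 621, 586 and 535, a change of 1.59 (SE 0.0935, adjusted p = 1.08e-24). At Mars it went from 35.5, 35 and 30.3 to 154, 141 and 140.2, a change of 2.10 (SE 0.192, adjusted p = 1.57e-14). These were already gained at the earlier time. By contrast, the windows at Lgi2, Bco1 and Paqr3, among the largest gains at 24 h, changed by 0.85 (SE 0.318, adjusted p = 0.0914), 0.43 (SE 0.115, adjusted p = 0.00968) and 0.25 (SE 0.143, adjusted p = 0.35) at 4 h, all within a change of 1. At 4 h the Lgi2 window was shorter, from 52615723 to 52616359 on chromosome 5, and had low counts.

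Losses were seen early at Lox and Thbs1. The 4 h window at Lox was shorter than the broad window. It held 854, 1001 and 733 in MSC without CK666 and 228, 247 and 199.5 with it, a change of -1.94 (SE 0.0879, adjusted p = 5.37e-32). At the large Thbs1 loss of 24 h, the 4 h window was longer than the broad window and reached over the 3′ end of Thbs1. It held 1550.0, 1779 and 1441 and 325, 296 and 254, a change of -2.45 (SE 0.0745, adjusted p = 3.98e-44). Pecr changed by -1.24 (SE 0.0617, adjusted p = 3.32e-29), Trappc6b by -0.95 (SE 0.0459, adjusted p = 3.53e-30) and Emp1 by -0.66 (SE 0.127, adjusted p = 0.000121). The Cxcl12 windows, both lost at 24 h, changed by 0.0 (SE 0.162, adjusted p = 0.999) and 0.32 (SE 0.12, adjusted p = 0.0893) at 4 h, with MSC libraries of the groups overlapping in the first. At Thbs2 the window over the 3′ end changed by 0.49 (SE 0.106, adjusted p = 0.000692) at 4 h, in the other direction than at 24 h. Rhob, which encodes a small GTPase of endosomes and is named after its value was seen, had the lowest 4 h value, with 568, 568 and 519.9 in CTL, 95.6, 119 and 81.8 with CK666 and a change of -2.48 (SE 0.109, adjusted p = 9.29e-33), while at 24 h it changed by -0.57. In NIH 3T3 it changed by -1.06 (SE 0.214, adjusted p = 0.000182).

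NIH 3T3 cells gave a comparison with an embryonic fibroblast line. The broad windows had been called in MSC, and MSC controls held 52.0 normalized counts per kb at them, against 35.8 in NIH 3T3, with 2591 of 3581 higher in MSC. Windows gained in MSC at 24 h had a median NIH 3T3 change of 0.22 and 34 of 50 were above 0. Those lost had a median of -0.23 and 31 of 49 were below 0. The difference of the CK666 effect between the cell types, MSC minus NIH 3T3, passed both limits in 67 of 6155 windows as higher (1.09%, against 0.905% of all) and in 63 as lower (1.02%, against 0.498%). That split was 88 and 50 with DESeq2 size factors, 85 and 52 with no filter on low counts, and 48 and 92 under total counts, which moved the median over all windows to -0.15. It was 110 and 59 without replicate 2 of NIH 3T3 with CK666, 77 and 42 without replicate 3 of that group and 86 and 48 without replicate 2 of the NIH 3T3 controls.

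Thbs1 had the largest such difference among the named windows. NIH 3T3 held 217, 192 and 201 without CK666 and 531, 726 and 586 with it, a gain of 1.60 (SE 0.12, adjusted p = 6.03e-18), where MSC lost counts. The difference was -4.05 (SE 0.165, adjusted p = 2.66e-33). At Lox NIH 3T3 changed by -0.52 (SE 0.134, adjusted p = 0.00397), the same direction as MSC but less, with a difference of -1.42 (SE 0.181, adjusted p = 3.93e-08). At Srxn1 the window of 4 h covered only part of the broad window of 7788 bp, so its values and those of 24 h are for unlike intervals. In it MSC went from 135, 132 and 111 to 573, 573 and 553, and NIH 3T3 from 69.1, 92.9 and 92.8 to 110.5, 83.5 and 96.1. The MSC libraries did not overlap, the NIH 3T3 libraries did, and the difference was 2.0 (SE 0.217, adjusted p = 2.74e-10).

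Broad windows were spread unevenly over the 19 autosomes, from 0.407 per Mb on chromosome 13 to 3.39 per Mb on chromosome 10. Across chromosomes, their density had a Pearson r of 0.967 with the number of windows per Mb, 0.944 with control counts per Mb and -0.11 with protein-coding genes per Mb (n = 19, as a description, since the first 2 measures come from the same libraries). With MSC control counts per Mb of the 4 h libraries r was 0.917, and with those of NIH 3T3 it was 0.484. Chromosome 10 had 10320 control counts per Mb and chromosome 13 had 5376, and promoter windows there held a median of 199.9 and 220.4 counts. The copy number of the chromosomes in this line was not tested. The median change of a chromosome's broad windows ran from -0.11 to 0.04 with CK666 and from -0.14 to 0.10 with CytoD.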

How the data were processed

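The authors aligned the ATAC-seq reads with bowtie2 inside the PEPATAC pipeline, called peaks with MACS2 and joined the peaks of replicates into consensus windows. The authors deposited raw read counts per window, with mm10 as the genome build in the submitters' processing notes. Tool versions, the handling of duplicate reads and any shift of cut sites were not given in the sources used here. Of the deposited count columns, 9 were analysed at 24 h and 12 at 4 h. Another 9 columns from siRNA experiments were not used here.

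Window starts were read as 0-based and are printed 1-based. Start sites came from GENCODE vM21 on GRCm38.p6, and distance was taken from the window's nearer edge. Counts were scaled by TMM, filtered with filterByExpr and tested with edgeR 4.0.16 (quasi-likelihood test, 9 libraries in 1 fit at 24 h, 6 or 12 at 4 h). P-values were adjusted with Benjamini-Hochberg over all windows tested. Normalized counts are TMM-scaled counts at the mean library size of the table, and fold changes are edgeR log2 values with their standard errors. DESeq2 1.42.0 was an alternative. In simulated data with 200 changed windows of log2 fold change 1.5, 189 (94.5%) were recovered for CK666 with 3 false calls, and 185 (92.5%) for CytoD with 0 false calls. The simulated spread was the fitted trend of the dispersion, with no shift by GC or abundance. The false calls there do not measure those in the real data.

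The members and lists were chosen with earlier results of these data known. Windows were named by rule: the 5 largest gains and losses past both limits with a mean of 50 normalized counts or more and no overlap between groups, the 8 genes with most windows, the 3 widest windows, up to 3 called windows of each list or else the one with the smallest adjusted p, the windows next to each limit, and up to 4 with opposite signs. Some windows and sequences that these rules pick are not reported here. Sequences were 300 bases holding the most TGANTCA matches or else nearest the centre. Replicates of a group had rank correlations of 0.872 to 0.916 over 162723 windows with a mean of 20 counts or more, and no libraries were identical. At 4 h the totals were 29239381 to 34979833 counts in MSC and 14496058 to 27866363 in NIH 3T3. Reads had no molecular identifiers, so counts need not be independent molecules. Exact permutation tests over libraries were used for shares of counts. Alternatives were DESeq2, 2 other scalings, trends removed with GC or abundance, no filter, a replicate block, other limits and leaving out each library.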

Additional observations from a re-analysis of the deposited data

Results flagged for a closer look

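The CK666 effect at 4 h differed between MSC and NIH 3T3 in 5 of the 125 windows that the naming rule picked and that had a value at 4 h, and in 6 of 29 windows named after their values were seen, by edgeR's test of the interaction over 12 libraries with Benjamini-Hochberg adjustment over 368794 windows. Over all windows of that table, 0.905% passed both limits as higher and 0.498% as lower. The first set was picked in part, and the second wholly, with regard to values in these data. These 2 counts are therefore no result about the broad windows. The differences are given as MSC minus NIH 3T3 on the log2 scale.

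At Thbs1 the difference was -4.05 (SE 0.165, adjusted p = 2.66e-33). MSC changed by -2.45 (SE 0.0745, adjusted p = 3.98e-44) and NIH 3T3 by 1.60 (SE 0.12, adjusted p = 6.03e-18), so every MSC library with CK666 lay below its controls and every NIH 3T3 library above. At Lox it was -1.42 (SE 0.181, adjusted p = 3.93e-08), with -1.94 (SE 0.0879, adjusted p = 5.37e-32) in MSC and -0.52 (SE 0.134, adjusted p = 0.00397) in NIH 3T3. At Srxn1 it was 2.0 (SE 0.217, adjusted p = 2.74e-10), with 2.16 (SE 0.102, adjusted p = 8.3e-31) in MSC and 0.17 (SE 0.169, adjusted p = 0.576) in NIH 3T3.

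Among the windows named after their values were seen, the difference was -2.01 (SE 0.238, adjusted p = 4.39e-09) at the second AI597479 window, 1.42 (SE 0.225, adjusted p = 7.81e-06) at a Sqstm1 window, -1.42 (SE 0.274, adjusted p = 0.000294) at Rhob and -1.75 (SE 0.24, adjusted p = 2.62e-07) at Fstl1. At the Ahnak windows it was -1.68 (SE 0.261, adjusted p = 4.82e-06) and -1.20 (SE 0.206, adjusted p = 3.94e-05).

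At Asap1, 2 windows differed. The first, from 64188492 to 64189251 on chromosome 15, differed by -2.40 (SE 0.598, adjusted p = 0.00754). It held 30.4, 27 and 38.4 normalized counts in MSC controls, 17.2, 21.1 and 22.5 with CK666, 8.64, 7.81 and 1.91 in NIH 3T3 controls and 27.6, 19.8 and 16 with CK666, which are low counts. The second, from 64243869 to 64245417, differed by -1.36 (SE 0.319, adjusted p = 0.00391). Its MSC libraries overlapped at 71.1, 84.1 and 68.8 and 51.6, 75.2 and 72.8, and those of NIH 3T3 did not, at 37.8, 33 and 30.6 and 72.1, 72.5 and 87.1. At 24 h the longer broad windows that overlap these 2, chr15:64187203-64189719 and chr15:64241597-64245290, changed by -0.21 and -0.02 with CK666. The values of the 2 times thus come from unlike intervals. NIH 3T3 libraries had lower totals than MSC libraries, and the part of depth in these differences was not tested.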

How the results depend on the processing

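Numbers of broad windows past both limits changed most with the limits and the width asked for. With an adjusted p under 0.05 and no fold limit, 626 differed with CK666, 689 with CytoD and 728 between the drugs, against 100, 63 and 89. At 1500 bp or more the numbers were 248, 199 and 242 of 10536 windows, and at 3000 bp or more 20, 9 and 19 of 830. Under the 2 other scalings, either trend removal, DESeq2, no filter, 2 groups only, 20 kb or no start site of any transcript, all 3 numbers stayed within 1.5 times. The split of gains and losses moved by more than 10 percentage points for CytoD (29 and 34, against 39 and 17 with the abundance trend removed, 43 and 24 under total counts, 38 and 26 with the GC trend removed and 19 and 36 with DESeq2). It moved likewise for the direct contrast (58 and 31, against 44 and 45 under total counts, 40 and 45 and 47 and 42 with the trends removed) and for the interaction (67 and 63, against 88 and 50, 85 and 52, and 48 and 92). The cause was not tested.

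Leaving out 1 library at a time gave 98 to 105 windows for CK666, 54 to 77 for CytoD, 84 to 102 for the direct contrast, 104 to 117 for CK666 at 4 h and 107 to 169 for the interaction. The share of counts differed by -0.156 to -0.0972 points with CK666 and by -0.0364 to 0.0227 with CytoD. Single windows were checked this way only in part. Left out were windows named after their values were seen, named only for the genes with most windows, or lying just outside the rule's limits. The Asap1 windows flagged for the difference between cell types were among those left out. Of the named windows checked none reversed, and the changed calls that follow are for these windows only. Calls lost without 1 library were those at Asap1, the second Cxcl12 window, Nxph4 and Ankrd1, and Ankrd1 also missed the fold limit at -0.90 and -0.99 with the abundance trend removed and under total counts. Calls gained without 1 library were those of Thbs1 (down to -1.15) and Ostf1 (-1.03) with CytoD, Lpl with CK666 (1.14), and Pecr (-1.01), Srxn1 (1.02) and Lrp6 (1.02) in the direct contrast. For the interaction they were Gtf3c6 (-1.03) and the Cxcl12 windows (1.41 and 1.48). Counting windows of 4 h with any overlap gave 129 for CK666 and 140 for the interaction, against 117 and 130.

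Same-numbered libraries of different groups did not deviate together, with correlations of -0.0174 to 0.0278 over 9 pairs, so the numbers were not treated as pairs. With the replicate block the numbers were 101 for CK666, 67 for CytoD, 91 for the direct contrast, 118 at 4 h and 115 for the interaction. Low counts limit the CytoD gains, of which 17 of 29 had a mean under 50 normalized counts.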
